A study of Mus musculus with 7 samples.

Results

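The 10 genes described here encode the pumps, release channels and entry channels that move calcium between the endoplasmic reticulum, the cytosol, the mitochondria and the outside of the cell. They are Atp2a3, Atp2a2, Itpr2, Itpr3, Ryr2, Orai1, Stim1, Slc8a1, Atp2b1 and Mcu, chosen by name, and each was read from probe sets annotated with that 1 gene symbol. All 10 were measured, out of 22180 genes on the array, by 11 such probe sets. Itpr3 has 2 of these, and the one with the higher mean over the 7 arrays was used.

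The tested islets came from mice labelled Gata6 KO, which carry floxed alleles of the transcription factor gene Gata6 and a Pdx1-Cre transgene (Gata6 flox/flox;Pdx1-Cre, 4 arrays). The control islets came from Gata6 flox/flox mice without the transgene (3 arrays). Each array held RNA of islets pooled from 3 mice aged 2 months, isolated with collagenase. The labels do not say that the pools came from separate animals or days, so p-values measure only the spread between these samples, which may be technical. The Pdx1 promoter is active in the developing pancreatic epithelium, from which endocrine, acinar and ductal cells arise. Every control lacks Cre, so an effect of Cre and one of Gata6 cannot be told apart.

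Beta cells of the islet secrete insulin when cytosolic calcium rises. Sarco-endoplasmic reticulum pumps (SERCA) fill the store of the endoplasmic reticulum, and inositol trisphosphate (IP3) receptors and ryanodine receptors empty it. When the store is low, the sensor STIM1 opens the plasma membrane channel ORAI1, while plasma membrane pumps and sodium-calcium exchangers remove calcium from the cell and the uniporter MCU takes it into mitochondria. Acinar cells, which surround the islets, also use store release to secrete digestive enzymes, and in mice they need IP3 receptors of types 2 and 3 for it.

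Signals are log2 values, and changes are given as the log2 difference of the arrays labelled Gata6 KO minus control, less the median difference of all genes, which was 0.17. SEs and p-values are those of the difference before this subtraction. A gene was called where limma gave an adjusted p (Benjamini-Hochberg, over all genes) under 0.05. Gata6 itself went against the label. It measured 5.41, 5.35, 5.34 and 5.01 on the arrays labelled Gata6 KO, against 4.6, 4.8 and 4.83 on the control arrays, and did not pass limma's test (adjusted p = 0.0622), though it was called higher in 5 of 19 alternatives (adjusted p from 0.0312 with array quality weights to 0.0495 without the dimmest genes). Where its probes lie relative to the floxed exons is not known here, so this probe set may check nothing, and every direction below is that of the labels. The hormone genes Ins2, Gcg, Sst and Ppy, which define the labelled tissue, ranked at percentiles 99.2 to 99.8 of all genes by mean signal over all 7 arrays. The acinar genes Ctrb1 and Cela1 ranked at percentile 100 after rounding. On the arrays labelled Gata6 KO the hormone genes were called lower without overlap, with changes of -1.66 (Ins2), -2.59 (Gcg), -2.38 (Sst) and -4.73 (Ppy). The Gcg call was lost without control array 1 or 2.

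The array labelled Gata6 KO 3 stood apart from the other arrays of its group. Its correlation with the control arrays over all probe sets was 0.875 to 0.881, against 0.898 to 0.908 for the other 3. It also had the lowest means of the alpha-cell, beta-cell and delta, PP and epsilon cell marker lists, and the lowest signal of its group for 8 of the 10 genes. Values without it are given where a call among the 10 genes rests on it. The calls of Orai3 and Calu, named below, were also lost without it. Xist, the transcript that silences an X chromosome in female cells, measured 2.15 on this array and 5.16 to 5.6 on the other arrays of its group, against 1.34 on control array 3 and 5.02 to 5.38 on the other control arrays.

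Promoter windows were read from RefSeq (build GRCm38.p6, 250 bases before to 50 after the start of the gene) for 9 of the 10 genes. Atp2a2 had none. They are shown for the gene with the largest change, Atp2a3, for the entry channel gene Orai1, and for Slc8a1, the only window of these 9 genes with a match to a GATA motif (the letters AGATAA or AGATAG, and also TGATAA or TGATAG, on either strand). Capitals mark GATA motifs in Slc8a1 and GC boxes (GGGCGG on either strand) in the other sequences, all written 5′ to 3′ on the gene's strand. The windows are chr11:72960919-72961218 on the plus strand, chr5:123014824-123015123 on the plus strand and chr17:81738338-81738637 on the minus strand.
Atp2a3: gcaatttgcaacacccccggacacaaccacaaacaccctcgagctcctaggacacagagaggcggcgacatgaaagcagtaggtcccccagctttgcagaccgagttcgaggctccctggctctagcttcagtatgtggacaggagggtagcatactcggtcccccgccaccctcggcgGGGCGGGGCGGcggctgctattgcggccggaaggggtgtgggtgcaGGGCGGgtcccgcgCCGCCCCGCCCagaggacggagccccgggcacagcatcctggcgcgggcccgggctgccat
Orai1: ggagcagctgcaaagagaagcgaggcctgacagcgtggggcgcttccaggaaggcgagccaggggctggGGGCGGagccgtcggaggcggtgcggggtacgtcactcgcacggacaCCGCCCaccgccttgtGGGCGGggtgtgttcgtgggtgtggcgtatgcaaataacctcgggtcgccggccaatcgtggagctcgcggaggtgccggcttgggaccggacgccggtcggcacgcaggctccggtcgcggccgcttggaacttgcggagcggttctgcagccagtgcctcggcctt
Slc8a1: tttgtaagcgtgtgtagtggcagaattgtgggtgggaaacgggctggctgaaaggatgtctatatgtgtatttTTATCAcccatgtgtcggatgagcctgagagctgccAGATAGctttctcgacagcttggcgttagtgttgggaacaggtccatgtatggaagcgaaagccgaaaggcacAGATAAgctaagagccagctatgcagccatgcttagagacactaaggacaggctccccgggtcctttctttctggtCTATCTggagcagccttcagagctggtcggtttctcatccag
The Slc8a1 window held 4 GATA matches and 0 GC boxes, the Atp2a3 window 5 GC boxes, some of them overlapping, and the Orai1 window 3. Of 32851 windows of all genes, 29.8% held at least 1 GATA match, 0.332% held 4 or more, and 35.7% held a GC box. A GC box was found for 7 of the 9 genes, a count by gene and not by window, since the 9 genes have 10 windows. Slc8a1 was singled out after its matches were seen. A match is a run of letters and not a measured binding site.

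Of the 10 genes 3 fell in islets labelled Gata6 KO (Atp2a3, Atp2a2 and Slc8a1), 2 rose (Itpr2 and Orai1) and 5 did not pass the test. Over all 22180 genes limma called 24.7%, with 7.36% lower and 17.4% higher. The median change of the 10 genes was -0.63, against 0 for all genes by construction. The call of the 2 SERCA pump genes was lost in no fit that left out an array or rescaled the arrays, whereas the other 3 calls depended on such choices. After each array was centred on its median, 5 genes were lower (Atp2b1 and Itpr3 in addition) and 0 higher, while 12.5% of all genes were lower and 8.43% higher. The share of higher genes among all calls was 70.2% as deposited and 40.3% after centring.

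**Figure D1:**
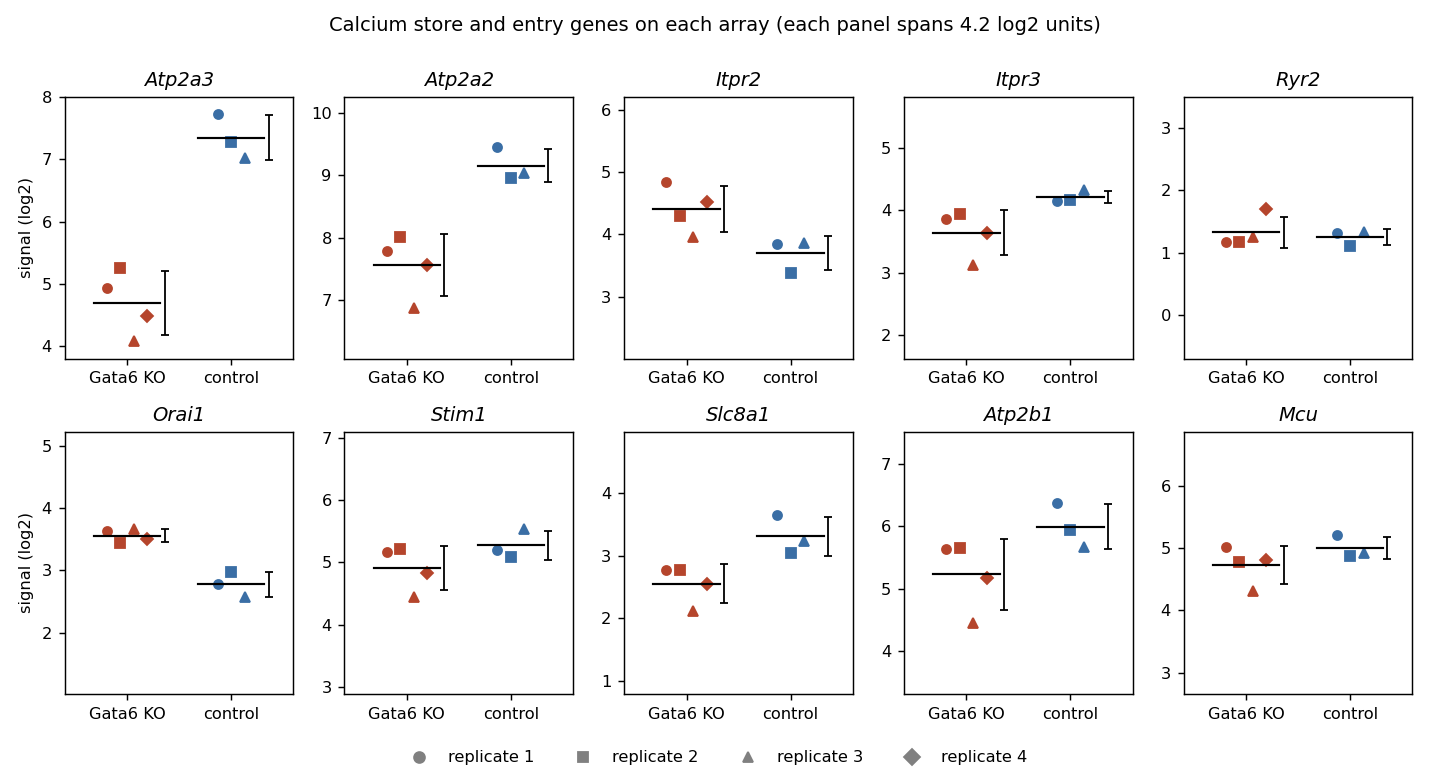
Log2 signal of the 10 genes on each array, with the arrays labelled Gata6 KO on the left (n = 4) and the control arrays on the right (n = 3); points are arrays, lines are means and bars are SDs. Atp2a3 and Atp2a2 show the widest gap between the groups, with 4.08 to 5.25 against 7.02 to 7.73 for Atp2a3, and the array labelled Gata6 KO 3 (triangle) is the lowest of its group for 8 genes.

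The pumps that fill the store showed the largest changes of the 10. Atp2a3 encodes SERCA3, a pump with low calcium affinity that mouse beta cells express. It measured 4.94, 5.25, 4.08 and 4.49 on the arrays labelled Gata6 KO, against 7.73, 7.28 and 7.02 on the control arrays. The groups did not overlap, and the highest array labelled Gata6 KO lay more than a log2 unit below the lowest control. The change was -2.82 (SE 0.28, adjusted p = 1.91e-05), or 7.07-fold lower, and only 74 of the 22180 genes (0.334%) had a lower value. Leaving out the array labelled Gata6 KO 3 gave an unshifted difference of -2.45, in place of -2.65.

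Atp2a2 encodes SERCA2, the housekeeping SERCA pump of most tissues. Its signal was 7.79, 8.01, 6.87 and 7.56 on the arrays labelled Gata6 KO, against 9.45, 8.96 and 9.04 on the control arrays, again without overlap. The change was -1.76 (SE 0.25, adjusted p = 5.26e-04), which is 3.38-fold lower. In these bulk samples fewer cells of a type and less RNA per cell cannot be told apart.

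The signal of Atp2a3 was reduced more than that of Atp2a2. The log2 difference between both genes on an array was -2.85, -2.76, -2.79 and -3.07 on the arrays labelled Gata6 KO, against -1.72, -1.68 and -2.02 on the control arrays. Its level depends on how each probe set responds and has no meaning of its own. Its shift of -1.06 between the groups measures unequal change of signal, which is that of the RNA only if both probe sets respond alike. This shift reached the smallest p that the exact two-sided permutation test allows (p = 0.0286 over 35 splits, 0.0429 adjusted over the 3 pairs compared). The adjusted value is under 0.05 only because the Itpr2 and Itpr3 pair, whose p was fixed as described below, is counted with it. The array labelled Gata6 KO 3, low for both pumps, lay within its group in this difference, and the shift was -1.09 when it was left out.

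**Figure D2:**
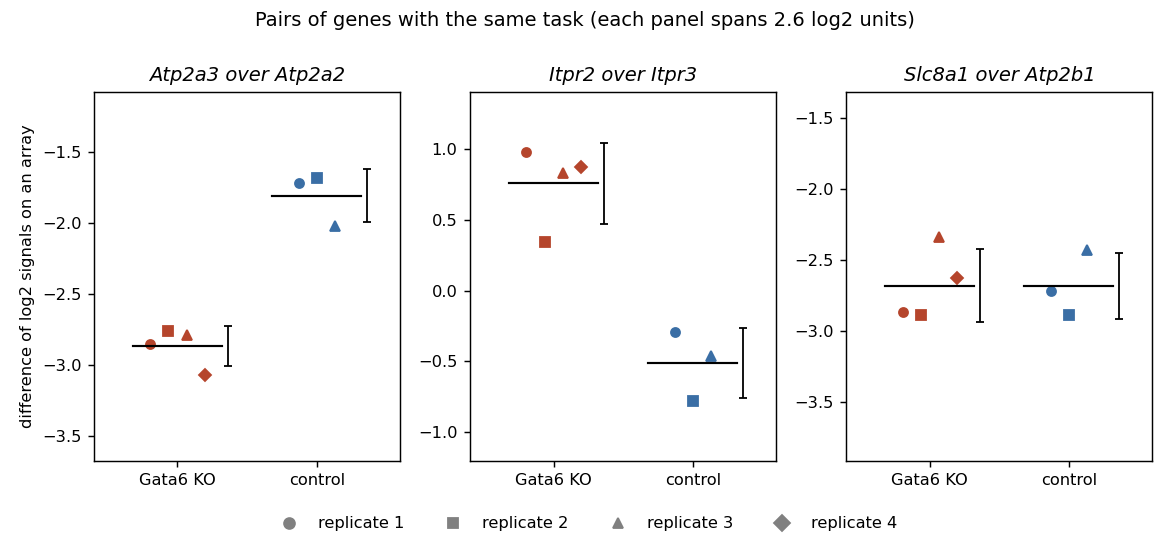
Difference of log2 signals between 2 genes on each array for 3 pairs, with the arrays labelled Gata6 KO on the left (n = 4) and the control arrays on the right (n = 3); points are arrays, lines means and bars SDs. The groups separate for Atp2a3 over Atp2a2 and for Itpr2 over Itpr3, and overlap for Slc8a1 over Atp2b1.

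The genes of the release channels went different ways. Itpr2, which encodes the type 2 IP3 receptor, measured 4.84, 4.29, 3.96 and 4.52 on the arrays labelled Gata6 KO, against 3.85, 3.38 and 3.86 on the control arrays. Every array labelled Gata6 KO lay above every control array, though the nearest values differed little (3.96 and 3.86). The change was 0.54 (SE 0.24, adjusted p = 0.0478), or 1.45-fold higher. This call was lost after centring (adjusted p = 0.205), after repeated quantile normalization (adjusted p = 0.0547) and without any array other than the one labelled Gata6 KO 3 (adjusted p from 0.0708 to 0.204).

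Itpr3, the gene of the type 3 IP3 receptor, did not pass the test. It measured 3.86, 3.94, 3.13 and 3.64 on the arrays labelled Gata6 KO, against 4.15, 4.16 and 4.32 on the control arrays, with no overlap. Its change was -0.73 (95% interval -1.22 to -0.24, adjusted p = 0.0884), and it was called after centring (adjusted p = 0.0315) and after repeated quantile normalization (adjusted p = 0.0479). The second Itpr3 probe set, with a mean of 2.1 over all arrays, measured 1.84, 2.36, 2.35 and 2.34 on the arrays labelled Gata6 KO, against 1.95, 2.16 and 1.71 on the control arrays. It thus overlapped between the groups, and with both probe sets averaged the unshifted Itpr3 difference was -0.14, against -0.56 with the main one.

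The balance of the Itpr2 and Itpr3 signals differed between the groups. Itpr1, the gene of another IP3 receptor, is neither among the genes described here nor among their measured paralogues. The log2 difference of Itpr2 over Itpr3 was 0.98, 0.34, 0.83 and 0.87 on the arrays labelled Gata6 KO, against -0.29, -0.78 and -0.46 on the control arrays, a shift of 1.27. With both Itpr3 probe sets averaged, the shift was 0.85. The exact two-sided permutation test gave p = 0.0286 (0.0429 adjusted over 3 pairs). Every array labelled Gata6 KO lay above the controls for Itpr2 and below them for Itpr3. This p was therefore fixed at its smallest possible value and adds nothing to the single genes. The adjusted p of the SERCA pair counts it too. The gene of the heart-type ryanodine receptor, Ryr2, gave a mean signal within the lowest 40% of all genes. It measured 1.18, 1.18, 1.26 and 1.70 on the arrays labelled Gata6 KO, against 1.32, 1.11 and 1.33 on the control arrays. The groups overlapped, and the change was -0.09 (95% interval -0.48 to 0.30, adjusted p = 0.797). Detection calls were not used, so whether Ryr2 lay above background is not known here.

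Of the genes of store-operated entry, the channel gene was higher and the sensor gene was not called. Orai1, the pore subunit, measured 3.64, 3.44, 3.66 and 3.50 on the arrays labelled Gata6 KO, against 2.78, 2.97 and 2.58 on the control arrays. The groups did not overlap, and Orai1 was the gene with the tightest spread on the arrays labelled Gata6 KO (SD 0.11). The change was 0.62 (SE 0.20, adjusted p = 0.0123), or 1.54-fold higher. Centring ended the call (adjusted p = 0.0753), as did leaving out control array 3 (adjusted p = 0.0635), while repeated quantile normalization kept it (adjusted p = 0.0384).

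Stim1, the gene of the store's calcium sensor, measured 5.16, 5.22, 4.45 and 4.83 on the arrays labelled Gata6 KO, against 5.20, 5.09 and 5.53 on the control arrays. The groups overlapped. Its change was -0.52 (95% interval -1.02 to -0.03) and did not pass the test (adjusted p = 0.283, from 0.110 to 0.872 over the alternatives other than the acinar covariate). The intervals given here lie around the change less the median of all genes, whereas limma's p tests the unshifted difference. For Stim1 that difference was -0.36, with an unadjusted limma p of 0.146. An interval that leaves out 0 is therefore not a passed test. The intervals are for a single gene and are not adjusted for the number of genes.

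Slc8a1 and Atp2b1, 1 gene from each of the routes that carry calcium out of the cell, had changes of like size. Slc8a1 encodes the sodium-calcium exchanger NCX1. It measured 2.77, 2.77, 2.11 and 2.55 on the arrays labelled Gata6 KO, against 3.66, 3.05 and 3.24 on the control arrays, without overlap. The change was -0.93 (SE 0.24, adjusted p = 0.0303), or 1.91-fold lower. Leaving out the array labelled Gata6 KO 3 ended the call (adjusted p = 0.074), and so did leaving out control array 1 (0.155) or 3 (0.069). It was kept after centring (adjusted p = 0.0104).

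Atp2b1, which encodes the plasma membrane calcium pump PMCA1, had a change of the same size and did not pass the test (-0.93, SE 0.29, adjusted p = 0.0665). Its values were 5.64, 5.66, 4.45 and 5.18 on the arrays labelled Gata6 KO, against 6.38, 5.94 and 5.67 on the control arrays. The groups touched, at 5.66 and 5.67. It was called after centring (adjusted p = 0.0327), after repeated quantile normalization (adjusted p = 0.0188) and when the array labelled Gata6 KO 1 was left out (adjusted p = 0.0458). The difference of Slc8a1 over Atp2b1 averaged -2.68 ± 0.26 with the KO label (SD, n = 4) and -2.68 ± 0.23 in controls (SD, n = 3) (exact two-sided permutation p = 0.971, shift from -0.12 to 0.12 with 1 array left out).

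Mcu, the pore subunit of the mitochondrial uniporter, was not called. It measured 5.02, 4.78, 4.31 and 4.80 on the arrays labelled Gata6 KO, against 5.21, 4.87 and 4.92 on the control arrays. The groups overlapped, and the change was -0.44 (95% interval -0.91 to 0.03, adjusted p = 0.382). Across the 10 genes the groups did not overlap for 7, with the arrays labelled Gata6 KO below for 5 and above for 2. Among all genes 34.3% did not overlap, with 9.96% below and 24.4% above.

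**Figure D3:**
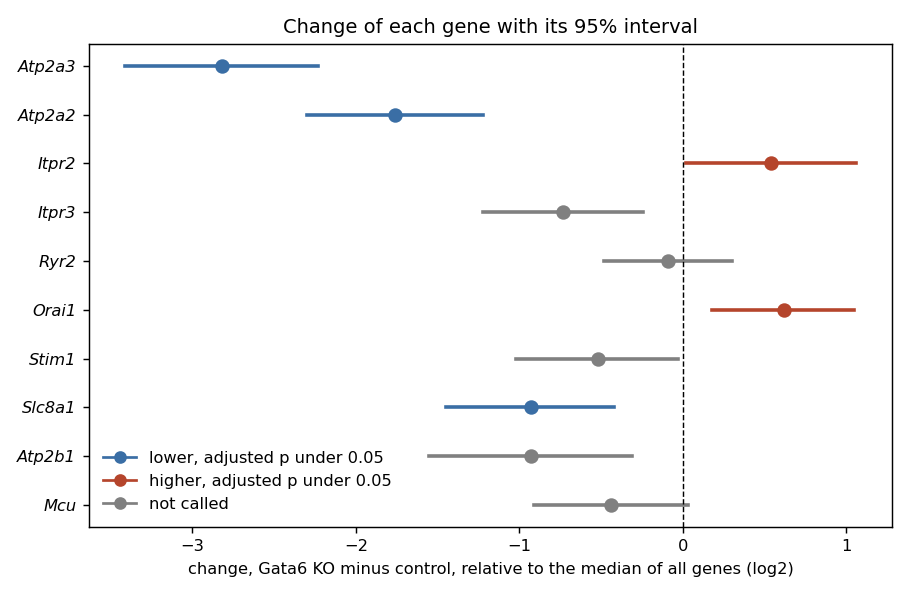
Change of each of the 10 genes between 4 arrays labelled Gata6 KO and 3 control arrays, as the log2 difference relative to the median of all genes, with its 95% interval from limma (bars, not adjusted for the number of genes). The bars are shifted with the change, whereas the calls test the unshifted difference. Blue marks genes called lower, red higher and grey not called; the changes run from -2.82 for Atp2a3 to 0.62 for Orai1.

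Marker lists of islet and other cell types were read in the same fit, in which 17.4% of all genes were higher and 7.36% lower. Of 13 beta-cell markers 12 fell and 1, Ero1b, rose as deposited but was not called after centring. Their summed linear signal was 1182 to 2992 on the arrays labelled Gata6 KO, against 7934 to 10815 on the control arrays. Of 4 alpha-cell markers 3 were lower (380 to 2003, against 5006 to 6342), as were 4 of 6 delta, PP and epsilon cell markers (515 to 2480, against 7972 to 10715). Acinar markers were higher for 18 of 31 genes and lower for 0, with a sum of 143623 to 165048 on the arrays labelled Gata6 KO and 112082 to 115535 on the control arrays. After centring, 13 acinar genes were higher and 1 lower. The values of the top acinar genes, Ctrb1 (13.45 ± 0.07 with the KO label, SD, n = 4, and 13.4 ± 0.03 in controls, SD, n = 3) and Cela1, lay close to the highest signal of the data set, 13.545.

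Of 16 mesenchymal and stellate cell markers 10 rose and 1 fell. Without the array labelled Gata6 KO 1 these 11 calls dropped to 7, and those over all genes from 5486 to 5200. Of 12 lymphoid markers 7 rose and 0 fell, and of 16 endothelial markers 2 rose and 4 fell, or 1 and 7 after centring. Of 12 ductal markers 2 rose and 3 fell, and of 12 myeloid markers 4 rose and 0 fell. Of 11 smooth muscle markers 3 rose and 0 fell, with 0 called after centring. Of 6 glial and neuronal markers 0 rose and 1 fell. Summed mesenchymal signal was 262 to 905 on the arrays labelled Gata6 KO, against 160 to 286 on the control arrays. The sums were 72 to 132 against 41 to 44 for the lymphoid list, and 211 to 405 against 421 to 589 for the endothelial list. When the acinar list mean was added to limma's model as a covariate, 0 of the 10 genes passed and 24 of all 22180 genes did. At an unadjusted p under 0.05 these counts were 0 of 10 and 2412 of 22180. That mean was 10.51 to 10.70 on the arrays labelled Gata6 KO and 9.85 to 9.93 on the control arrays, so the covariate and the label separate the same arrays and cannot be told apart. The part of the other lists in the results was not tested.

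**Figure D4:**
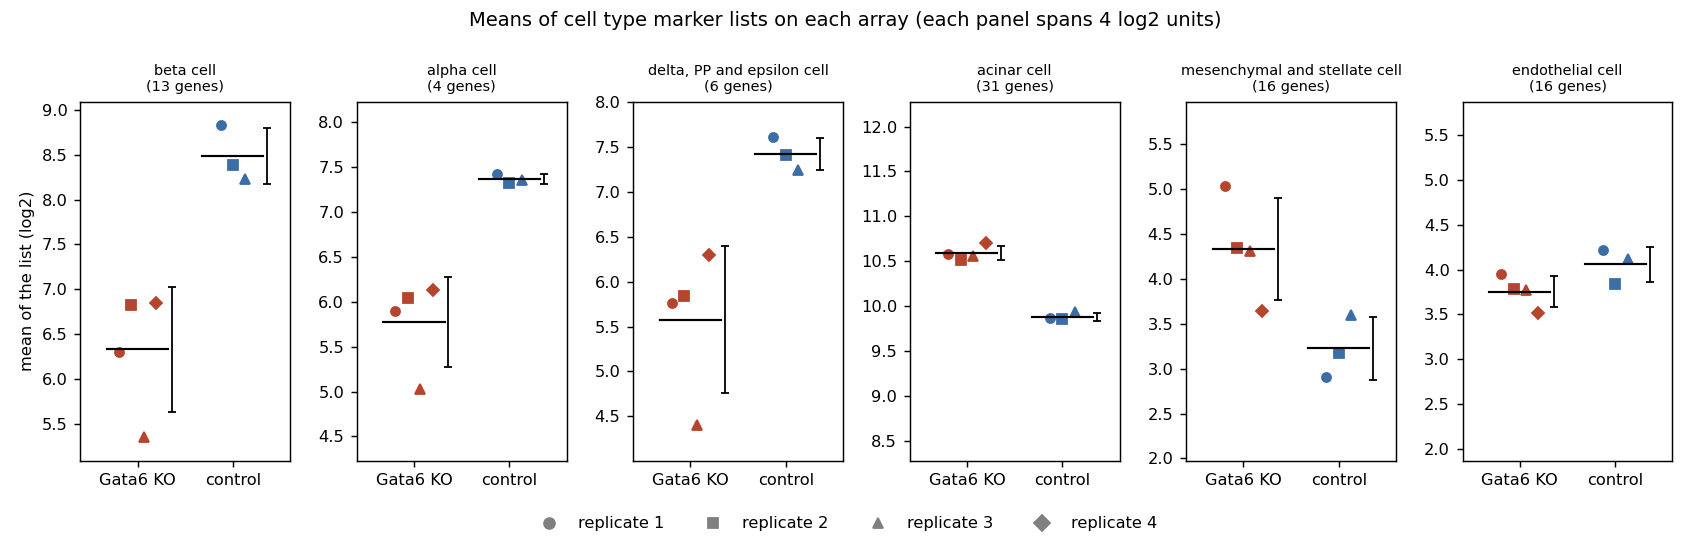
Mean log2 signal of 6 cell type marker lists on each array, with the arrays labelled Gata6 KO on the left (n = 4) and the control arrays on the right (n = 3); points are arrays, lines means and bars SDs. The hormone cell lists are lower and the acinar list higher on every array labelled Gata6 KO, and the array labelled Gata6 KO 3 (triangle) is the lowest for the 3 hormone cell lists.

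The other genes of calcium handling were read from 7 lists, with 135 genes measured. Of these 18 were higher and 21 lower, together 28.9%, against 24.7% of all genes, and their median change was -0.07. Among 14 paralogues of the 10 genes 2 were lower and 0 higher (median -0.06). When an array was left out 1 to 2 of them were called, and 3265 to 5613 of all 22180 genes. Atp2b4, the gene of the plasma membrane pump PMCA4, averaged 2.75 ± 0.22 with the KO label (SD, n = 4) and 4.27 ± 0.49 in controls (SD, n = 3), a change of -1.68 (SE 0.25, adjusted p = 6.63e-04). Orai3, an ORAI channel gene, averaged 3.59 ± 0.38 with the KO label (SD, n = 4) and 4.32 ± 0.27 in controls (SD, n = 3), a change of -0.90 (adjusted p = 0.0417). That call was lost in 5 of 7 fits that left out an array, with adjusted p up to 0.181. The exchanger gene Slc8a3 (0.36), the muscle SERCA gene Atp2a1 (0.43) and the skeletal muscle ryanodine receptor gene Ryr1 (0.29) did not pass, nor did the second sensor gene Stim2 (-0.23, adjusted p = 0.851).

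Of 27 regulators of pumps and channels 6 were higher and 1 lower (median 0.00), together 25.9%, near the 24.7% of all genes. Lrmp, an endoplasmic reticulum membrane protein that binds IP3 receptors, measured 4.48, 4.74, 4.33 and 3.96 on the arrays labelled Gata6 KO, against 2.92, 3.00 and 3.08 on the control arrays, a change of 1.21 (SE 0.22, adjusted p = 5.82e-04). Erp44, a lumenal protein that binds the type 1 IP3 receptor, changed by 0.89 (SE 0.18) and Tmco1, a channel that lets calcium leave an overfilled store, by 1.07 (SE 0.27). Stimate, a protein of endoplasmic reticulum contacts that promotes STIM1 activity, changed by 0.87 (SE 0.24) and the scaffold gene Homer3 by 0.77 (SE 0.21). These 5 calls held in all 7 fits that left out an array. Saraf, which inactivates store-operated entry, changed by -0.80 (SE 0.18, adjusted p = 0.0219), a call lost in 4 of those fits, with adjusted p up to 0.0824.

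The list drawn up for calcium binding proteins of the endoplasmic reticulum had 4 genes higher and 1 lower of 18 (median 0.20), and 2 higher and 1 lower after centring. Where in the cell each of these proteins lies was not examined. The share called as deposited was 27.8%, near the 24.7% of all genes. Without control array 1 only 2 of these 18 were called, and 3265 of all 22180 genes, against 5486 with all arrays. Nucb2, the precursor gene of nesfatin, measured 10, 9.67, 9.54 and 9.93 on the arrays labelled Gata6 KO, against 7.57, 8.42 and 8.30 on the control arrays, a change of 1.52 (SE 0.22, adjusted p = 1.28e-04). The disulfide isomerase gene Pdia6 changed by 0.74 (SE 0.18). The calls of Rcn1 (0.82), Calu (0.73) and the muscle calsequestrin gene Casq2 (-0.90) were each lost without control array 3 or another array, with the highest adjusted p at 0.0681, 0.108 and 0.13, and those of Rcn1 and Calu also after centring (adjusted p = 0.0742 and 0.136). Hsp90b1, a chaperone gene, did not pass (-0.27, adjusted p = 0.730).

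Cytosolic calcium buffers and sensors held some of the larger decreases, with 4 of 19 genes lower and 2 higher (median -0.20). Without control array 1, 3 of them were called in all, and 3265 of all 22180 genes. With all arrays 31.6% were called, against 24.7% of all genes. Vsnl1, which encodes the neuronal calcium sensor visinin-like protein 1, measured 3.08, 2.86, 2.65 and 3.26 on the arrays labelled Gata6 KO, against 5.42, 5.01 and 5.27 on the control arrays, a change of -2.43 (SE 0.22, adjusted p = 1.10e-05). Scgn, the gene of secretagogin, an EF-hand protein of endocrine cells, changed by -2.26 (SE 0.40) and Cabp7 by -1.66 (SE 0.33). The calbindin gene Calb1 changed by -1.52 (SE 0.35) and S100a6 by 1.06 (SE 0.30), and leaving out control array 1 ended both calls (adjusted p = 0.0796 and 0.0565). The Calb1 call was also lost without control array 2.

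In the list of IP3 formation and breakdown 7 of 25 genes were lower and 1 higher (median -0.15). Together they were 32% of the list, against 24.7% of all genes. P2ry1, a receptor for extracellular nucleotides that couples to phospholipase C, measured 2.52, 3.24, 2.54 and 2.81 on the arrays labelled Gata6 KO, against 5.60, 5.05 and 4.92 on the control arrays, a change of -2.58 (SE 0.25, adjusted p = 1.68e-05). The muscarinic receptor gene Chrm3 changed by -1.15 (SE 0.23) and Itpkb, a kinase that phosphorylates IP3, by -2.01 (SE 0.28). Of the G protein subunits that activate phospholipase C, Gna11 changed by -1.15 (SE 0.22) and Gna14 by 1.5 (SE 0.22, adjusted p = 1.45e-04). The other 2 genes of this class, named after their values were seen, were Gnaq, which was lower (-0.84, SE 0.23, adjusted p = 0.0421) but not in every fit that left out an array, and Gna15, which did not pass (-0.46, adjusted p = 0.357). Cckar, the cholecystokinin receptor gene that mouse acinar cells express, did not pass (0.08, adjusted p = 0.448).

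Of 24 TRP, endolysosomal and other entry channel genes 5 were lower and 3 higher (median -0.16). Together they were 33.3% of the list, against 24.7% of all genes. The sodium leak channel gene Nalcn measured 1.14, 1.45, 1.47 and 1.85 on the arrays labelled Gata6 KO, against 3.52, 3.33 and 3.02 on the control arrays, a change of -1.98 (SE 0.23, adjusted p = 8.14e-05). Trpc1 changed by -1.82 (SE 0.25), Trpm3 by -1.14 (SE 0.23) and Trpm5, a calcium-activated channel of beta cells, by -1.17 (SE 0.24). The endolysosomal channel genes Tpcn1 and Mcoln2 changed by -0.96 (SE 0.22) and 1.00 (SE 0.20), and leaving out control array 2 ended the Tpcn1 call (adjusted p = 0.0868).

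Among 8 partners of the mitochondrial uniporter 2 were higher and 1 lower (median 0.23). Without control array 3, 1 of them was called in all, and 3933 of all 22180 genes. With all arrays 37.5% were called, against 24.7% of all genes. The outer membrane channel gene Vdac3 changed by 0.83 (SE 0.24) and the uniporter regulator gene Mcur1 by 0.64 (SE 0.25). Both calls were lost after centring (adjusted p = 0.051 and 0.145), and without control array 3 for Vdac3 (adjusted p = 0.0538) or any of 5 arrays for Mcur1 (adjusted p up to 0.0901). Micu3, a calcium-sensing uniporter subunit, changed by -1.18 (SE 0.24, adjusted p = 0.00736) at a low signal of 1.25 ± 0.32 with the KO label (SD, n = 4) and 2.26 ± 0.41 in controls (SD, n = 3). Vdac1 and Vdac2 did not pass (both 0.30).

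**Figure D5:**
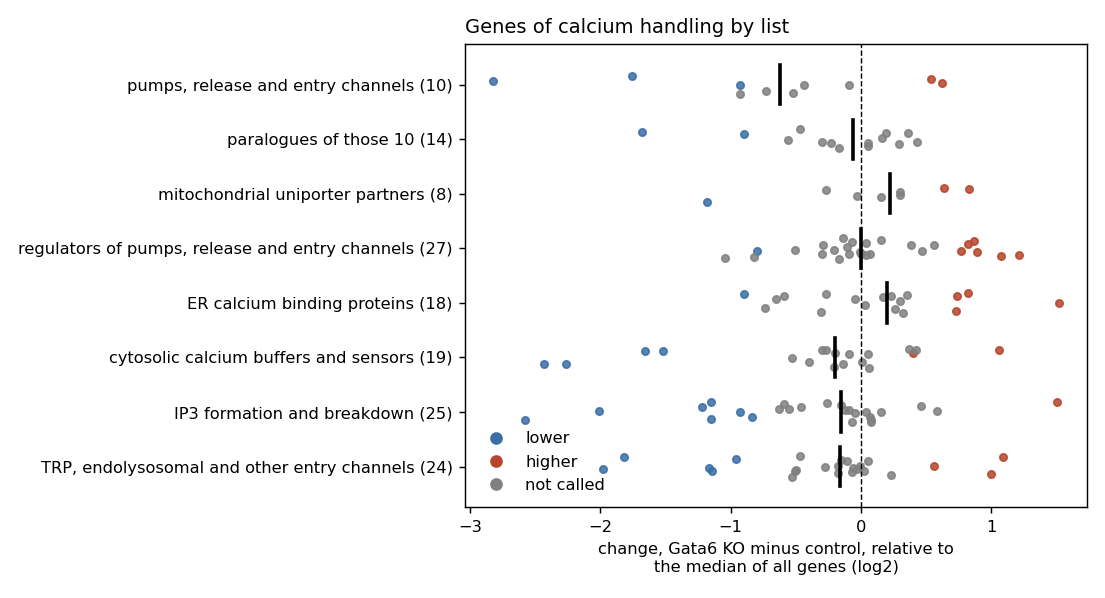
Change of each gene (x axis) of the 7 calcium lists and of the 10 pumps, release and entry channel genes, between 4 arrays labelled Gata6 KO and 3 control arrays, as the log2 difference relative to the median of all genes (dashed line); each point is a gene (blue lower, red higher, grey not called), black bars are list medians and numbers in parentheses are genes measured. Medians of the 7 lists lie between -0.20 and 0.23, and that of the 10 genes at -0.63.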

How the data were processed

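Gene expression of pancreatic islets was measured on 7 whole-transcript Affymetrix arrays (Mouse Gene 2.0 ST, per the series' design text). The log2 signals were normalized and summarised by the authors before they were deposited, and per the submitters' processing notes RMA and the program Transcriptome Analysis Console were used (no version given). That the logarithm has base 2 was inferred from RMA. Genome build and further steps are not given in the sources used here. Array medians over all 41345 probe sets were 1.89 to 2.11 on the arrays labelled Gata6 KO and 1.72 to 1.78 on the control arrays. Detection calls were not used. The number of arrays limits the precision.

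Genes were named from the 23521 probe sets with 1 symbol in the platform annotation (1814 had several symbols and 16010 were unnamed here). For genes with several, the probe set with the highest mean was kept, leaving 22180 genes. limma 3.58.1 in R 4.3.3 (lmFit, eBayes with trend, no covariate) tested all genes, with two-sided p-values adjusted by Benjamini-Hochberg over the whole table. The fit was tested on simulated data. The pairs were compared with exact permutation over 35 splits of the arrays. Alternatives were other scalings, probe set and gene filters, eBayes settings, array weights, blocks, a covariate and leaving out each array. No column of sample values was left unused.

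The 10 genes, the 7 calcium lists, the 11 marker lists and the alternatives were chosen with earlier results of these data known. The text names the 10 genes, Gata6, the 4 hormone genes, up to 5 genes with the smallest p and the gene with the highest mean of each calcium list, and from the 2 genes with the highest mean of each marker list; Ero1b was named after its value was seen. Replicate numbers 1 to 3 occur in both groups, but deviations of same-numbered arrays correlated at 0.098, 0.004 and 0.115, so the numbers were not used as pairs. Figures were drawn with matplotlib 3.10.9.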

Additional observations from a re-analysis of the deposited data

Results flagged for a closer look

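The array labelled Gata6 KO 4 gave a Ryr2 signal of 1.70, far from the other 3 arrays of its group (1.18, 1.18 and 1.26). Its gap to the nearest array was 0.846 of the group's range, above Dixon's 95% critical value for 4 samples. Chance flags about 1 in 20 groups, and 10 genes were examined. Without this array the unshifted Ryr2 difference was -0.05, against 0.08 with it.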

How the results depend on the processing

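Of the 10 genes, 5 passed as deposited, and the count was 3 with all probe sets in 1 fit, 3 on the arrays with high Xist alone (a choice made after the data were seen), 2 at an adjusted p under 0.01 and 0 with the mean of the acinar list as covariate. With 1 array left out it ran from 2 (without control array 3) to 5. Over all genes 5486 passed, and 2797 at an adjusted p under 0.01, 3337 on the arrays with high Xist and 24 with the acinar covariate, with 3265 (without control array 1) to 5613 when 1 array was left out. Without control array 3 the count over all genes was 3933. With all probe sets in 1 fit 6514 of 41345 probe sets passed. Atp2a3 and Atp2a2 were called in 18 of 19 alternatives each, all but the acinar covariate, where their unshifted differences were -0.49 and -0.86. That covariate turned Itpr2 to -0.59 and Atp2b1 to 0.55 (limma adjusted p = 0.925 and 0.945). It separates the same arrays as the label, so these signs cannot be read as reversals. Ryr2, at 0.08, turned to -0.15 after centring, -0.08 after repeated quantile normalization, -0.05 with the replicate block, -0.05 without the array labelled Gata6 KO 4 and -1.78 with the acinar covariate, and ran from -0.05 to 0.13 when 1 array was left out. With the replicate number as a block 5 genes passed, Atp2b1 (adjusted p = 0.028) in place of Itpr2 (adjusted p = 0.055). Blocking arrays with low and high Xist gave the same exchange (adjusted p = 0.015 and 0.0546). The Orai1 and Slc8a1 calls were also lost on the arrays with high Xist (adjusted p = 0.102 and 0.133), and those of Itpr2 and Slc8a1 with all probe sets in 1 fit (adjusted p = 0.0944 and 0.062). With both Itpr3 probe sets averaged, the shift of Itpr2 over Itpr3 was 0.85, against 1.27. The pairs with 1 array left out cannot reach the threshold and are given as values, -1.17 to -1.0 for the SERCA genes and 1.13 to 1.41 for the IP3 receptor genes. The causes of these moves were not tested. Signal over background is not known here, which limits what low signals such as that of Ryr2 can show.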
